A study of Mus musculus with 4 samples.

Results

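CT010467.1, Gm42418 and Gm26917 are neighbouring mouse gene entries on chromosome 17 that hold or flank ribosomal RNA sequence. Together with Ccdc107, its opposite-strand neighbour Rmrp and the RNA helicase gene Ddx1 they make 6 of the 50600 genes counted in T-helper 2 (Th2) cells. They were chosen by name, with it already known from these data that CT010467.1 takes very different shares of the 4 libraries and that most of the others differ along with it. Those differences are therefore given below as a description, and nothing is read from their calls in a test over all genes. CT010467.1 held between 1.29% and 9.40% of a library, while Ddx1 and Ccdc107, at no more than 180 counts in a library, were about as uneven over the same libraries.

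The libraries came from 1 group: 4 total RNA-seq libraries of Th2 primary cells of mouse strain C57BL/6NJ. Th2 cells are CD4 T cells known for secreting interleukin 4, and the labels link a protocol for differentiating them from CD4 T cells. The labels name no treatment and no genetic change. They number the libraries as biological replicates 1 to 4, give every one the same donor identifier, and leave sex and age unrecorded. Whether that identifier stands for 1 animal is not stated. The part of technical differences in the spread between libraries was not tested. All 18 T cell identity genes looked up had counts in every library. Most of their summed counts fell on Cd247, at 1023 to 1261, which has 3007 exonic bases opposite Pou2f1. Among the Th2 genes most counts fell on Ptgdr2, at 173 to 215, with 1031 exonic bases opposite Ccdc86. Of 11 Th2 genes, 7 had counts in all 4 libraries, with 10, 12, 18 and 7 counts for Il4, and Il5, Il13, Maf and Il1rl1 were at 0. Of 36 markers of other cell types, 26 were at 0 in every library and 8 had counts in all 4. The summed level of the 36 ran from 536 to 618 CPM (counts scaled to the library total, here without CT010467.1). Nearly all of it came from Csf1r with 916 to 1018 counts, a gene with 871 exonic bases opposite Hmgxb3. Cd79a had 15, 16, 20 and 9 counts in replicates 1 to 4, Ighm 17, 15, 3 and 24, and Cd74 6, 15, 18 and 9. No exon of another gene lies opposite Cd79a, Ighm or Cd74.

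The nucleolus makes ribosomal RNA from many repeated gene copies, and RNA polymerase I transcribes a long precursor that is cleaved and trimmed into the 18S, 5.8S and 28S RNAs. These RNAs have no poly(A) tail and make up most of the RNA of a cell. The labels call the assay total RNA-seq, while the library protocol they link is named for poly(A) RNA. Rmrp encodes the RNA of RNase MRP, an enzyme best known for cutting the ribosomal RNA precursor. DDX1 is a DEAD-box RNA helicase that works in human cells with the RTCB ligase in tRNA splicing.

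The start of CT010467.1 and Gm42418 is shown because the letters tell on which strand each entry lies relative to ribosomal RNA, and the start of Gm26917 because it is their neighbour. The bases are those of GENCODE release M21 transcripts on mm10, written 5′ to 3′ along the annotated strand. In the first 2 lines the capitals mark the last 12 bases of 18S ribosomal RNA, and in the line for Gm42418 the 19 bases that small-subunit ribosomal RNAs share across life. The line for Gm26917 has no capitals.
CT010467.1, minus strand, chr17:39848142-39848201: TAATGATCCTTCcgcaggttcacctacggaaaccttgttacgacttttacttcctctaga
The other strand of the same bases: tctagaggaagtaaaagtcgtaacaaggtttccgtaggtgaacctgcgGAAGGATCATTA
Gm42418, plus strand, chr17:39846958-39847017: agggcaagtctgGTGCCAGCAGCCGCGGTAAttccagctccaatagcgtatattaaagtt
Gm26917, plus strand, chr17:39843013-39843072: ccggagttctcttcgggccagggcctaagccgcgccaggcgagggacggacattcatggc
The conserved stretches read in the direction of ribosomal RNA on the plus strand, the strand of Gm42418, and CT010467.1 is annotated on the opposite one. RefSeq places the 18S-related pseudogene Rn18s-rs5, for which Gm42418 is listed as a synonym, at chr17:39846354-39848202, a span of 1849 bases. The first transcript of CT010467.1 is also 1849 bases long. Its reverse complement shares 1244 bases with Gm42418 without a mismatch, beginning at position 606.

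In the deposited tables CT010467.1 (ENSMUSG00000106106.2, type rRNA) spans chr17:39846353-39848827 with 3 exons and 2466 exonic bases. Gm42418 (ENSMUSG00000098178.1, type lincRNA) spans chr17:39846958-39848788 in 1 exon of 1831 bases, of which 1822 lie opposite exons of CT010467.1. Gm26917 (ENSMUSG00000097971.3, type lincRNA) covers chr17:39843013-39846341, 3329 bases in 1 exon. On the genome 11 bases separate its end from the first transcript of CT010467.1. It has no gene opposite, and is rich in G and C at 69.1%, against 55.4% in that transcript of CT010467.1 and 60.2% in Gm42418. A further entry, AY036118, lies inside CT010467.1 on the same strand over 923 bases and had no counts. No option that counts a read pair for more than 1 gene is recorded in the headers, so pairs that fell on CT010467.1 and AY036118 together would have been assigned to neither.

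CT010467.1 had 21809, 86102, 208884 and 30455 counts in replicates 1, 2, 3 and 4. Replicate 1 thus gave it 1.29% of all its counts, with a 95% Wilson interval of 1.27 to 1.31%, and replicate 4 gave it 1.62% (1.6 to 1.64%). Its share was 5.05% (5.02 to 5.08%) for replicate 2 and 9.40% (9.36 to 9.44%) for replicate 3. It was the gene with the most counts in replicates 2 and 3, ranked 2 in replicate 4 and ranked 5 in replicate 1. Replicate 3 exceeded replicate 1 by 7.28 times in CPM, and no intervals of neighbouring libraries overlapped. The intervals, here and below, cover counting error only. In bulk libraries, a change in the number of cells of a type and a change in RNA per cell cannot be told apart. Per length, the level of CT010467.1 averaged 26049 ± 22858 TPM (counts scaled to gene length and library total; SD, n = 4), so the SD was nearly as large as the mean. The length used, here and in its ratios per kilobase below, includes the 923 bases shared with AY036118, where pairs may be lost.

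Because CT010467.1 is so large, it lowers the CPM of every other gene, most of all in replicate 3. With it left out, library totals were 1666849, 1618994, 2013699 and 1850838 counts in replicates 1 to 4. The CPM of all other genes were then higher by 1.31, 5.32, 10.4 and 1.65% in these libraries. The highest-to-lowest ratio of CT010467.1 became 7.93 in place of 7.28. The order of libraries of each of the 6 genes was the same with and without CT010467.1 in the totals.

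Gm42418 had 39, 134, 164 and 67 counts in replicates 1 to 4, or 23.1, 78.6, 73.8 and 35.6 CPM. Replicates 2 and 3 were the high ones, as for CT010467.1, but in the other order, and their counting intervals overlapped. The intervals of replicates 4 and 1 overlapped as well. Its highest-to-lowest ratio was 3.40, and 3.54 with CT010467.1 out of the totals.

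Gm26917 had 4, 43, 102 and 5 counts in replicates 1 to 4, or 2.37, 25.2, 45.9 and 2.66 CPM. It was nearly absent from replicates 1 and 4, whose intervals overlapped, and replicate 3 stood above replicate 2 without overlap. The ratio of replicate 3 to replicate 1 was 19.4, the largest among the 5 genes with counts in every library, but it rests on 4 counts in the denominator.

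The 3 entries did not keep a constant ratio to each other. For each count of Gm42418, CT010467.1 had 559, 643, 1274 and 455 counts in replicates 1 to 4. Per kilobase of exon the ratio was 415, 477, 946 and 338, with the interval in replicate 3 (812 to 1109) above those of replicates 1 (304 to 584), 2 (403 to 569) and 4 (266 to 436). Gm26917 had 0.103, 0.321, 0.622 and 0.0746 counts per count of Gm42418 in replicates 1 to 4. CT010467.1 had 5452, 2002, 2048 and 6091 counts per count of Gm26917, so replicates 2 and 3 were close to each other in this ratio and stood apart from replicates 1 and 4.

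**Figure D1:**
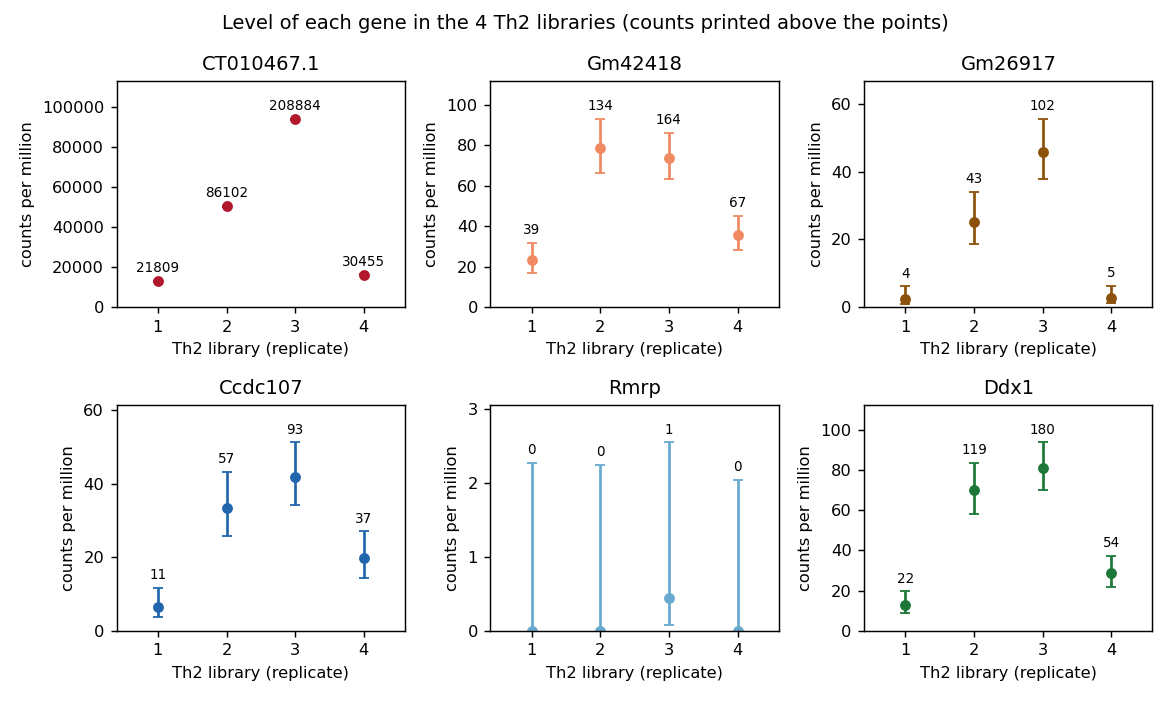
Level of each of the 6 genes in CPM (vertical axis, linear from 0, a scale for each panel) in the 4 Th2 libraries (horizontal axis). Points are single libraries, bars are 95% Wilson intervals of counting error, and the counts are printed above. Replicates 2 and 3 are the high libraries in every panel except Rmrp, which has 1 count in all.

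Across both strands of this ribosomal RNA stretch, 99.88% of the counts were assigned to CT010467.1 on the minus strand and 0.116% to Gm42418, on the strand that reads as ribosomal RNA. A measurement of strand elsewhere in the same libraries stands beside this. mt-Nd6, the only mRNA encoded on the light strand of mitochondrial DNA, held 92.0, 87.2, 90.2 and 90.1% of mitochondrial mRNA counts in replicates 1 to 4. The headers record strand option 1 in every library. Whether counts came from RNA of the annotated strand or of the other one was not tested, for CT010467.1 or for any other gene named here. Levels and rankings above and below are those of the counts as assigned. They may not be the levels of RNA from the named genes.

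Ccdc107 (ENSMUSG00000028461.12, protein-coding, chr4:43492900-43495921, plus strand, 5 exons, 1547 bases) had 11, 57, 93 and 37 counts in replicates 1 to 4. That was 6.51, 33.4, 41.8 and 19.7 CPM, an order of libraries shared with CT010467.1. The intervals of replicates 3 and 2 overlapped, and so did those of replicates 2 and 4, while replicate 1 lay below the others. The highest-to-lowest ratio was 6.42, and 7.0 with CT010467.1 out of the totals. Its level per length was 24.2 ± 15.0 TPM (SD, n = 4).

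Rmrp (ENSMUSG00000088088.1, type ribozyme, chr4:43492788-43493058, minus strand, 271 bases) lies opposite the first deposited exon of Ccdc107. It had 0, 0, 1 and 0 counts in replicates 1 to 4. A count of 0 allows up to 1.78, 1.76 and 1.59 CPM in replicates 1, 2 and 4. RMRP RNA has no poly(A) tail, and the part of this in its low counts was not tested. Summed over libraries, Ccdc107 had 198 counts against 1 for Rmrp. Per kilobase of exon this was a ratio of 34.7, with an exact 95% interval of 6.15 to 1377. The sequence of Rmrp is shown to place the shared bases. Capitals mark its positions 36 to 159, the 124 bases that lie inside the first exon of Ccdc107.
Rmrp, minus strand, chr4:43492788-43493058: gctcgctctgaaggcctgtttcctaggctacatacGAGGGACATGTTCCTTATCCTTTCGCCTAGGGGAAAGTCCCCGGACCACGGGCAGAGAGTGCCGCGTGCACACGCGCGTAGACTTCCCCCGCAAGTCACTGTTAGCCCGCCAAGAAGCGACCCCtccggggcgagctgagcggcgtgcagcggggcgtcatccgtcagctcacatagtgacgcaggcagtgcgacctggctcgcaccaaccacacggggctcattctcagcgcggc
Of 6 Ccdc107 transcripts in GENCODE M21, 1 has an exon inside Rmrp. The start site given for Ccdc107 in the RefSeq promoter table of the same build, base 43493365 of chromosome 4, lies 307 bases past the end of Rmrp. The tables give 1 count per gene, so how many Ccdc107 counts fell on the shared bases was not tested.

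**Figure D2:**
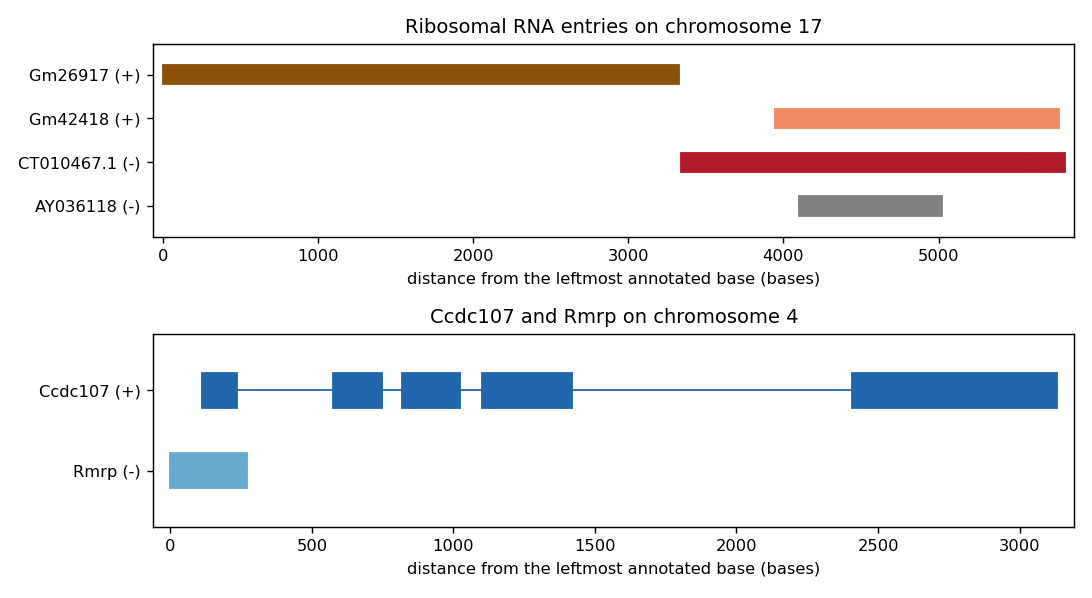
Exons of the deposited annotation as boxes, with the strand in brackets, against distance in bases from the leftmost annotated base of each locus. Gm42418 lies opposite CT010467.1 over 1822 of its 1831 bases, Gm26917 ends just before CT010467.1, and Rmrp covers the first exon of Ccdc107.

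Ddx1 (ENSMUSG00000037149.9, protein-coding, chr12:13219308-13249213, minus strand, 26 exons, 2507 bases) had 22, 119, 180 and 54 counts in replicates 1 to 4. That was 13, 69.8, 81.0 and 28.7 CPM. The order of libraries was that of CT010467.1. The intervals of replicates 3 and 2 overlapped, and replicates 4 and 1 stood apart from each other and from the high libraries. The highest-to-lowest ratio was 6.22, and 6.77 with CT010467.1 out of the totals. Per length, the level was 28.4 ± 19.3 TPM (SD, n = 4). No exon or intron of another gene lies opposite Ddx1. A blastn search of 141767 mouse transcripts of GENCODE M21 found no other gene with a similar stretch, ribosomal RNA entries included. It held no genome sequence, so ribosomal DNA outside those entries was not searched. Whether reads from ribosomal RNA were counted for Ddx1 was not tested.

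The partners of DDX1 did not share the pattern of its gene. In the tRNA ligase complex, 6 of 7 symbols matched the annotation and all had counts in every library, and Ddx1 was the only one of the 6 that was highest in replicate 3. Rtcb, the ligase itself, had 22, 16, 21 and 21 counts in replicates 1 to 4, with 28 exonic bases opposite Ascl4. Zbtb8os, the archease that activates the ligase, had 66, 57, 86 and 96 counts, with 264 of its exonic bases opposite Zbtb8a. Rtraf had 21, 17, 10 and 17 counts, with 386 exonic bases opposite Nid2. Of 37 DEAD-box genes, 30 had counts in every library and 1 of these, Ddx1, was highest in replicate 3, while 15 were lowest there. Over all 10876 genes with counts in every library, 21.4% were highest and 39.1% lowest in replicate 3. For the 6179 of them without an exon of another gene opposite, the shares were 17.3% and 46.1%. Ddx39, an mRNA export factor, had the highest level per length in that family at 86.8 ± 11.3 TPM (SD, n = 4), with log2 CPM differing by 0.40 between its highest and lowest library and 895 exonic bases opposite Adgre5. Ddx21, which works in ribosomal RNA processing, reached 56.0 ± 14.9 TPM and was highest in replicate 4. Ddx28 followed at 31.2 ± 2.16 TPM, with 72 exonic bases opposite Dus2.

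Variation between libraries was tested over all genes with edgeR's quasi-likelihood dispersion, adjusted by Benjamini-Hochberg. Genes entered the test when their counts passed edgeR's filter on low counts. Of 4918 genes tested, 22 passed at 0.05, or 0.447%, and 281 had an unadjusted p below 0.05. Of the 6 genes described, 4 were tested, CT010467.1, Gm42418, Ccdc107 and Ddx1, and all 4 passed. They had been picked for their variation, so nothing is read from this. Gm26917 and Rmrp did not pass the count filter. With CT010467.1 left out of the table, 18 of 5003 genes passed, or 0.360%, and Gm42418, Ccdc107 and Ddx1 were among them. With a mean count of 10 or more as the filter, 44 of 6443 passed, or 0.683%, and these included the same 4 genes and Gm26917. The calls of Gm42418, Ccdc107 and Ddx1 did not hold under every setting. None of the 3 passed when library totals alone were used for scaling, with limma, or without replicate 1. Ccdc107 also lost its call without replicate 3, and Ccdc107 and Gm42418 lost theirs without replicate 4 and without the robust prior of the edgeR fit.

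The ranges of the 6 genes are given beside those of other genes as a description, since the genes were chosen for varying. On log2 CPM with CT010467.1 out of the totals, the highest library exceeded the lowest by 2.99 for CT010467.1, 1.81 for Gm42418, 4.25 for Gm26917, 2.76 for Ccdc107 and 2.73 for Ddx1. The median over tested genes was 0.56 and the 90th percentile 1.18. A range of at least 2 was reached by 12 of the 4918. The tested genes with a range no smaller than that of Ddx1 were 4, namely CT010467.1, Ccdc107, Ddx1 itself and Olfr77, which had 127, 61, 27 and 15 counts and ran in another order. This count depended on the filter on low counts. Among genes with a mean count of 10 or more, 53 other than the 6 had a range at least as large as Ddx1. In the 1756 tested genes without an exon of another gene opposite, the median range was 0.84 and 50.6% were lowest in replicate 3, the library where Ddx1 was highest. Only 15.6% of them were highest there.

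**Figure D3:**
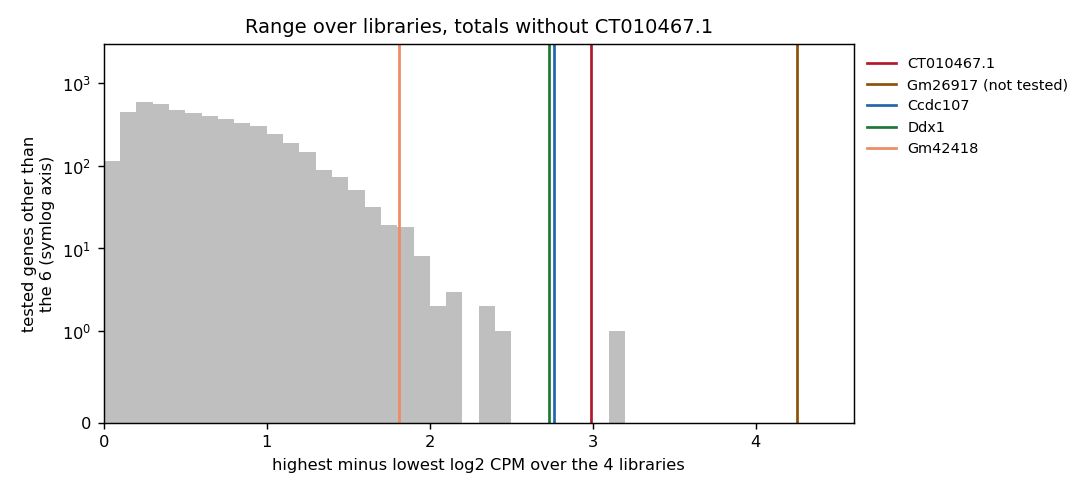
Number of tested genes other than the 6 (vertical axis, symmetric log scale) by the difference in log2 CPM between the highest and the lowest of the 4 libraries (horizontal axis), with CT010467.1 out of the totals. Lines mark Gm42418 at 1.81, Ddx1 at 2.73, Ccdc107 at 2.76, CT010467.1 at 2.99 and Gm26917, which was not tested, at 4.25.

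Replicates 1 and 2 also differed from replicates 3 and 4. Tsix, the antisense gene of Xist, had 3465, 2990, 3 and 4 counts in replicates 1 to 4. Ddx3y, a gene of the Y chromosome, had 0, 0, 7 and 7 counts. The labels do not record sex, and its part in this divide was not tested. The pattern was present on both sides of that divide. Replicate 2 exceeded replicate 1 in CPM without CT010467.1 in the totals by 4.06 times for CT010467.1, 3.54 for Gm42418, 11.1 for Gm26917, 5.33 for Ccdc107 and 5.57 for Ddx1. Replicate 3 exceeded replicate 4 by 6.30 times for CT010467.1, 2.25 for Gm42418, 18.8 for Gm26917, 2.31 for Ccdc107 and 3.06 for Ddx1. Each comparison sets 1 library against 1, so it has no replicate check.

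Likeness of profiles was measured as the root-mean-square difference between centred log2 CPM values over the 4 libraries, with CT010467.1 out of the totals. By this measure Ddx1 lay 0.40 from CT010467.1, Ccdc107 0.55, Gm42418 0.56 and Gm26917 0.69, against a median of 1.27 over tested genes. Ddx1 and Ccdc107 had been chosen for tracking CT010467.1, so their closeness is a description. At a limit of 0.5, Ddx1 was the only tested gene inside, and Ccdc107 came next at 0.55. That count of 1 was 12 at a limit of 0.75, 5 among genes with a mean count of 10 or more and 26 without replicate 3. The order of libraries 3, 2, 4, 1 was seen in 202 tested genes, or 4.11%, and in 5 of the 22 that varied. Of these 5, CT010467.1, Ccdc107 and Ddx1 had been chosen with that profile known, and the other 2, Gm37376 and ENSMUSG00000092267.1, lie opposite Malat1.

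Other than the 6 genes described, the 10 tested genes nearest to CT010467.1 were Gm28438 at 0.60, Dgat1 at 0.61, Slc10a1 at 0.63, Wdr19 at 0.66, Trim41 and Epb41l4a at 0.69, Gpat2 at 0.71, Greb1l and Ccdc125 at 0.75, and Gm27008 at 0.76. All 10 were highest in replicate 3 with replicate 2 second, and 5 of them shared the whole order. None passed the variation test, which 0.447% of all tested genes passed. Dgat1, an enzyme of triglyceride synthesis, had 15, 21, 56 and 13 counts in replicates 1 to 4. Their profiles were flatter: the pseudogene Gm28438 had 30, 44, 113 and 30 counts, a log2 range of 1.77. Among the 6 themselves, Ddx1 and Ccdc107 lay 0.20 apart, and Gm42418 lay 0.34 from Ddx1 and 0.39 from Ccdc107. Gm6899, with 16, 58, 57 and 51 counts, was the gene outside the 6 nearest to Ccdc107 at 0.49, and it lay opposite Vrk2. Gm12043, at 0.57, was the gene outside the 6 nearest to Ddx1, followed by Ccdc125, Gm6899, 4930422M22Rik and Wdr19.

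**Figure D4:**
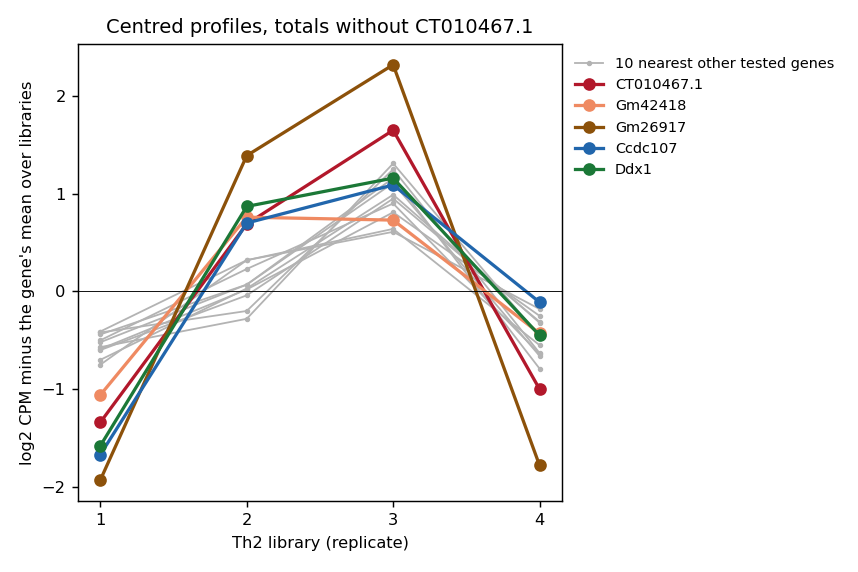
Log2 CPM minus the gene's own mean over libraries (vertical axis), with CT010467.1 out of the totals, in replicates 1 to 4 (horizontal axis). Coloured lines are the 5 genes with counts in every library and grey lines the 10 tested genes most like CT010467.1. The coloured genes are high in replicates 2 and 3, and the grey ones are high mainly in replicate 3.

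Other ribosomal RNA entries were scarce. Apart from CT010467.1, 353 entries have the type rRNA, 36 of them had a count, and together they held 82, 92, 151 and 99 counts in replicates 1 to 4. The 180 entries named n-R5s, copies of the 5S ribosomal RNA gene that polymerase III transcribes, held 34.8, 42.0, 52.6 and 41.1 CPM with CT010467.1 out of the totals. The spread was thus much narrower than that of CT010467.1, with replicate 3 the highest in both. Of the 4 entries with the most counts, n-R5s183 had 11, 18, 24 and 16 and n-R5s202 had 13, 17, 19 and 12. All 114 bases of n-R5s202 lie opposite exons of Emc7, and its CPM was highest in replicate 2. The mitochondrial ribosomal RNAs ran in another order: mt-Rnr2 had 39, 77, 37 and 69 counts and mt-Rnr1 had 32, 37, 8 and 28, so both were lowest in CPM in replicate 3.

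Genes whose products make or process ribosomal RNA did not run with CT010467.1, and many were lowest in the library where it was highest. Of 41 genes of ribosomal RNA precursor processing, 40 were matched and had counts in every library, 27 were tested and none passed. Over all tested genes 0.447% passed, so none passing does not set a short list apart. Of the 40, 0 were highest in replicate 3 and 31 were lowest there, as were 20 of the 27 tested. Over all tested genes 35.2% were lowest and 25.1% highest in replicate 3, and among those without an opposite exon 50.6% were lowest there. The T cell identity list, which has no link to ribosomal RNA, had a like split, with 14 of its 18 genes lowest in replicate 3 and 0 highest. With CT010467.1 out of the totals, the summed level of the 40 precursor processing genes was 3058, 2988, 2275 and 3954 CPM in replicates 1 to 4. The median log2 range of the 27 tested was 0.89. The nucleolar proteins Npm1 and Ncl had 362 ± 87.4 and 128 ± 35.8 TPM, and Nolc1 had 71.5 ± 22.1 TPM (SD, n = 4). Of 20 genes of RNA polymerase I and its factors, 19 had counts in every library, 7 were tested and none passed. The summed level of the 20 was 335, 321, 257 and 388 CPM on the same totals, and 14 of the 19 were lowest in replicate 3. Cd3eap, with 106 exonic bases opposite Ercc1, had the highest level per length among them at 63.1 ± 6.75 TPM, followed by Polr2f at 17 ± 11.2 TPM and Ubtf, which binds ribosomal DNA, at 14.2 ± 2.37 TPM.

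Of 17 genes of the nuclear exosome, which trims ribosomal RNA precursors from the 3′ end, 15 matched and 14 had counts in every library. None of the 8 tested passed, against 0.447% of all tested genes, and 6 were lowest in replicate 3. Over all tested genes 35.2% were lowest there. The share was 50.6% for those without an opposite exon and 26.7% for those with one. Exosc9 led at 83.5 ± 6.68 TPM, followed by Exosc3 at 44.9 ± 7.28 and Exosc8 at 20.4 ± 2.27 TPM. On the other strand Exosc9 overlaps Ccna2 by 510 bases, Exosc3 overlaps Dcaf10 by 53 and Exosc8 overlaps Supt20 by 89. Of 13 genes of RNase MRP and RNase P, 7 had counts in every library and 1, Pop5, was tested and did not pass. Pop5 had 46, 60, 86 and 73 counts in replicates 1 to 4. Pop7 and Rpp38 followed at 3.96 ± 1.38 and 2.84 ± 2.20 TPM. None of 11 other RNAs made by polymerase III had counts in every library, and their summed 2, 3, 4 and 1 counts leave their order unresolved at this depth. Rpph1 had 2, 1, 0 and 1 counts, Rn7sk 0, 0, 2 and 0, and Rn7s1 0, 1, 0 and 0.

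**Figure D5:**
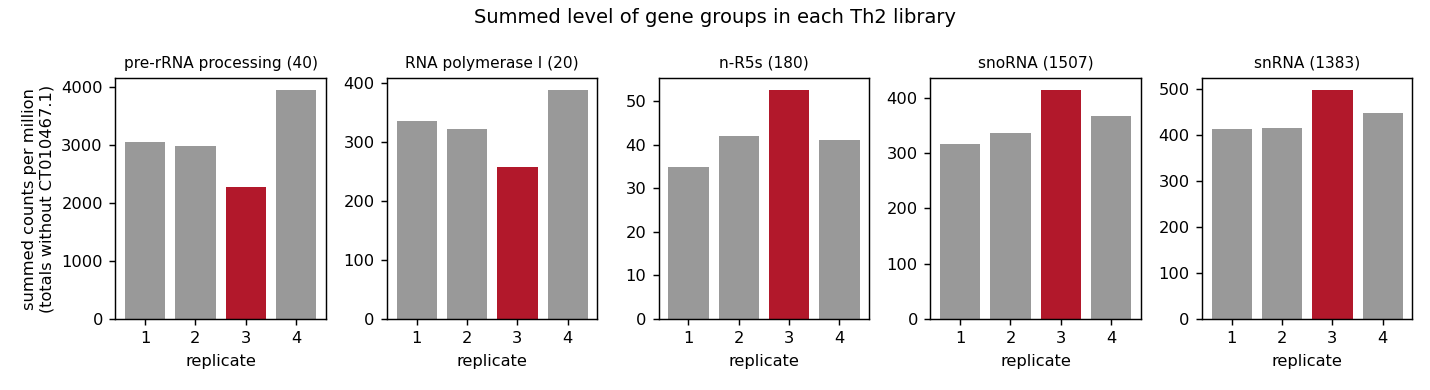
Summed CPM of 5 gene groups (vertical axis, linear from 0, a scale for each panel) in the 4 libraries (horizontal axis), with CT010467.1 out of the totals, the number of entries in brackets and replicate 3 in red. Precursor processing and RNA polymerase I genes are lowest in replicate 3, at 2275 and 257 CPM, and the n-R5s, snoRNA and snRNA entries are highest there.

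Small RNAs without a poly(A) tail showed modest differences in the direction of CT010467.1. Of the 1507 entries of type snoRNA, which guide modification of ribosomal RNA, 108 had a count. With CT010467.1 out of the totals, these entries held 316, 337, 415 and 367 CPM in replicates 1 to 4. The 1383 snRNA entries, parts of the spliceosome, held 413, 414, 498 and 448 CPM on the same totals. Replicate 3 was the highest for both types, but replicate 2 was below replicate 4, unlike for CT010467.1. Of the snoRNA entries 7 were tested, of the snRNA entries 6, and none passed. With 0.447% of all tested genes passing, this does not set them apart. The snoRNA entries Gm24853, Gm25767 and Gm22478 had 1574 ± 149, 551 ± 62.2 and 476 ± 77.1 TPM, and the snRNA entries Gm23865, Gm23851 and Gm25600 had 2297 ± 179, 438 ± 32.5 and 301 ± 56.9 TPM (SD, n = 4). All 121 bases of Gm24853 lie opposite exons of Synj2bp, all 124 of Gm25767 opposite D5Ertd579e and all 97 of Gm23865 opposite Odf2.

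Library totals were 1688658, 1705096, 2222583 and 1881293 counts in replicates 1 to 4. No pair of libraries agreed within sampling noise, since the chi-square per degree of freedom without CT010467.1 was between 2.08 and 5.51. Genes with no exon opposite held 8.31, 7.75, 6.70 and 9.93% of counts in replicates 1 to 4. Replicate 3 was thus lowest in that share too, which moved with the gene groups lowest there, and its part in them was not tested.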

How the data were processed

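Total RNA-seq gene tables of 4 Th2 libraries, 1 group, were used. The authors deposited raw counts per gene, made with featureCounts 1.4.6-p4 on mm10 with GENCODE M13, strand option 1 and paired reads with both ends aligned, per the file headers. No option for multimapping or multiply overlapping reads is recorded there. The name of the aligner was not given in the sources used here. A time of 16 hours stands in the headers and not in the labels. The depth was 1688658 to 2222583 counts per library.

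Symbols and types came from GENCODE M21 by gene identifier (99.6% of 50600 genes matched). CPM and TPM were calculated from these counts, TPM with the gene lengths in the tables. Sums over gene lists, log2 ranges of listed genes, and their highest and lowest libraries were taken with CT010467.1 out of the totals. Log2 values carry a prior count of 0.5. Variation was tested with edgeR 4.0.16 (R 4.3.3): an intercept-only model with TMM and filterByExpr, a robust quasi-likelihood fit, with a one-sided F test of a gene's quasi-dispersion against the trended prior, adjusted by Benjamini-Hochberg over all tested genes. Alternatives used limma 3.58.1 and DESeq2 1.42.0 size factors, other filters, totals and priors, and each replicate left out. Sequences were compared with blastn 2.17.0 at an expect value of 1e-05. Scripts were tested on simulated data. No genome sequence was used here.

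The 6 genes and all lists were chosen with earlier results of these data known. The text names the 6 genes and the gene with the longest exonic overlap opposite each, the 10 tested genes nearest to CT010467.1 and 5 nearest to Ddx1 and to Ccdc107, the 4 other ribosomal RNA entries with the most counts, and the 3 members of each list with the highest mean TPM plus any that passed. Marker genes, Olfr77, Tsix, Ddx3y, mt-Nd6, AY036118 and Rtcb were named outside that rule, after their values were seen. So were Gm37376 with its neighbour opposite Malat1, and the 4 genes under other observations. Genes with near-identical copies, the ribosomal RNA entries and snRNA copies among them, are uncertain, since ribosomal DNA has many copies and reads that align to several places may have been left out.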

Additional observations from a re-analysis of the deposited data

Results flagged for a closer look

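Of 19 genes examined, 3 had a gap that stood out: the gap between 1 library and the next, divided by the whole range of CPM over the 4 libraries, exceeded Dixon's 95% critical value for 4 samples, which chance passes in about 1 of 20 groups. For Rmrp the value was 1.0, which follows from its having 1 count in all. It was 0.869 for Trim41, with 86 counts in replicate 3 and 21 to 25 in the other libraries, and 0.916 for Epb41l4a, with 46 counts in replicate 3 and 10 to 12 in the others. Both had been named for a profile close to that of CT010467.1, which is highest in replicate 3. For CT010467.1 it was 0.536, below that value.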

How the results depend on the processing

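Of 114 values recomputed under other settings, 98 moved by less than the SD between libraries (for Ccdc107 over Rmrp, by less than its exact interval allows), or stayed within 1.5 times for counts of genes. That SD is wide: the log2 range of Ddx1, 2.61, was 1.49 without replicate 1, and the mean share of CT010467.1, 4.34%, was 2.65% without replicate 3. The log2 range of Ccdc107, 2.63 with all counts in the totals, was between 1.08 (without replicate 1) and 2.63 when a replicate was left out. That of Rmrp, 1.43, was 0.51 with a prior count of 2 and between 0.0 (without replicate 3) and 1.43 on leaving out a replicate, because it rests on 1 count. Against 22 genes that varied between libraries, 2 passed with library totals only, 44 with a mean count of 10 or more, 56 with no further filter, 9 without the robust prior and 1 with limma. Leaving out a replicate gave 11 to 21, and replicate 4 was the one that gave 11. Against 1 gene within 0.5 of the profile of CT010467.1, 12 lay within 0.75, 0 when the largest difference in any library was used, and 5 with a mean count of 10 or more. Leaving out replicates 1, 2, 3 and 4 gave 5, 3, 26 and 2, each including Ddx1. The causes of the changes in the 22 were not tested. The ratio of Ccdc107 to Rmrp could not be computed without replicate 3, where Rmrp is at 0. No paired analysis was possible because the libraries form 1 group. Depth limits Gm26917 and Rmrp most, with 4 and 0 counts in their lowest library.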

Other observations

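When genes with a mean count of 10 or more were searched in place of those passing the stricter filter, 4 genes other than Ddx1 lay within 0.5 of the profile of CT010467.1, all with few counts. Zfp750, a zinc finger gene, had 4, 12, 37 and 5 counts in replicates 1 to 4 and lay at 0.18. Nfe2l3 had 4, 11, 28 and 3 counts and lay at 0.31, Lrrc4 had 3, 8, 38 and 6 and lay at 0.42, and 4930412M03Rik had 7, 12, 52 and 8 and lay at 0.46. No exon of another gene lies opposite any of these 4.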
